A study of Mus musculus with 3 samples.

Results

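Cadherins are calcium-dependent adhesion proteins that join cells to their neighbours, and catenins are the cytoplasmic proteins that tie classical cadherins to actin. Their transcripts were followed in mpkDCT4a cells, an immortalised mouse kidney line named for the distal convoluted tubule. The members were all protein-coding genes of the GENCODE M21 annotation whose symbols begin with Cdh and a digit, with Pcdh or Dchs, or with Ctnna, Ctnnb or Ctnnd, together with the Fat genes, but without Cdh1 and Cdh2. They numbered 105 of 21974 protein-coding genes and of 55487 genes in the table. The label Pcdha11 stands for 2 of these genes, so that there are 104 symbols, and both of its genes had 0 counts.

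The samples were 3 libraries of 1 group, made from total RNA of unmodified cells after removal of ribosomal RNA, and the design holds no contrast of conditions. All cells were grown at 37 °C with serum (2%), dexamethasone (50 nM), triiodothyronine (1 nM), epidermal growth factor (10 ng/ml), insulin (5 µg/ml), transferrin (5 µg/ml), glucose (20 mM), glutamine, selenate and HEPES. Nothing in the labels ties the replicates to separate cultures, and p-values measure the spread between these samples only, which may be technical. Libraries held 436983, 482418 and 443192 counts, so that a single count in replicates 1, 2 and 3 equals 2.31, 2.07 and 2.24 CPM (counts-per-million). Of 12 markers of the labelled segment 5 had a mean of at least 1 CPM, against 50.6% of all protein-coding genes. They were Wnk4 (45.2 ± 11.2 CPM), Cnnm2 (19.8 ± 3.23 CPM), Trpm6 (8.84 ± 5.98 CPM), Kcnj10 (6.67 ± 2.42 CPM) and Egf (2.23 ± 2.31 CPM). The list summed to 66.3 to 94.1 CPM per library. The markers at 0 counts were Slc12a3, the defining sodium chloride cotransporter, Pvalb, Calb1, Klhl3, Emx1, Sall3 and Tmem52b. In such bulk RNA, fewer cells of a type and less RNA per cell cannot be told apart.

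In an adherens junction, the tail of a classical cadherin binds beta-catenin or plakoglobin, alpha-catenin links that complex to actin, and p120-catenin holds the cadherin at the membrane. Beta-catenin that leaves this pool is degraded or acts in the nucleus with T cell factors as the output of WNT signalling. Protocadherins lack the catenin-binding tail, and the alpha, beta and gamma protocadherins lie in clusters from which neurons choose combinations of isoforms. Fat and Dachsous proteins are giant cadherins that bind each other and act in planar polarity and growth control.

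Where a gene shares exons with another gene, its counts may cover only part of its transcript, and this bears on the p120-catenin gene Ctnnd1 and the protocadherin clusters. Of 156 protein-coding genes with at least 99% of their exon bases inside same-strand exons of another gene, 0 had a count, against 10880 of 20216 (53.8%) with no such bases. Of 35 genes covered to that extent by the opposite strand alone, 7 had counts. Genes covered wholly on their own strand were thus without counts in this table, while antisense overlap did not always remove them. Which annotation release the submitters counted on is unknown, and the overlap was computed on GENCODE M21.

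Ctnnd1 (ENSMUSG00000034101, GRCm38 chromosome 2, 84600071 to 84650765, minus strand) shares 4482 of its 7319 exon bases (61.2%) with Gm28635, a gene model that joins exons of the neighbouring Tmx2 to those of Ctnnd1. Of 2904 coding bases, 2814 (96.9%) are shared, and Gm28635 had 0 counts in every library. The following stretches of a Ctnnd1 transcript, from GENCODE M21, show what could and could not be told apart. The first holds 90 bases from the start codon (capitals) at chr2:84624375-84624464, minus strand, and occurs letter for letter in Gm28635. The second shows in capitals an alternative coding exon of 87 bases at chr2:84603188-84603274, minus strand, with 15 bases on either side. That exon occurs in no annotated transcript of another gene.
Ctnnd1 coding start: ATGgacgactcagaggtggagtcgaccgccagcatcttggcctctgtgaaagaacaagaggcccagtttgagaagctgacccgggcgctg
Ctnnd1 alternative coding exon: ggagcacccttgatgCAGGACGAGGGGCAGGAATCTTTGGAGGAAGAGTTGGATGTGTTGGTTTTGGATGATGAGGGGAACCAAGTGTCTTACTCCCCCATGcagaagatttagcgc

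27 of the 105 members (25.7%) reached a mean of 1 CPM over the libraries, called detected from here on, against 50.6% of all protein-coding genes. 35 members had at least 1 count (54.0% of all protein-coding genes did), and 70 had none. The 48 members outside the clusters had 17 detected genes (35.4%) and the 57 clustered protocadherins 10 (17.5%). The median level was 0 CPM over all members and 1.46 CPM over all protein-coding genes. Among detected genes only, it was 18.5 CPM for members and 39.6 CPM for protein-coding genes. All members together took 4069 counts, or 0.299% of the total, and 2 genes, Ctnna1 and Ctnnb1, took 53.7% of these. With Fat1, Cdh3, Cdh6 and Cdh16 the share rose to 83.2%. 0 counts over the 3 libraries allow a level of up to 2.2 CPM (3 counts of the summed library size), and intervals and this limit cover counting error only.

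**Figure D1:**
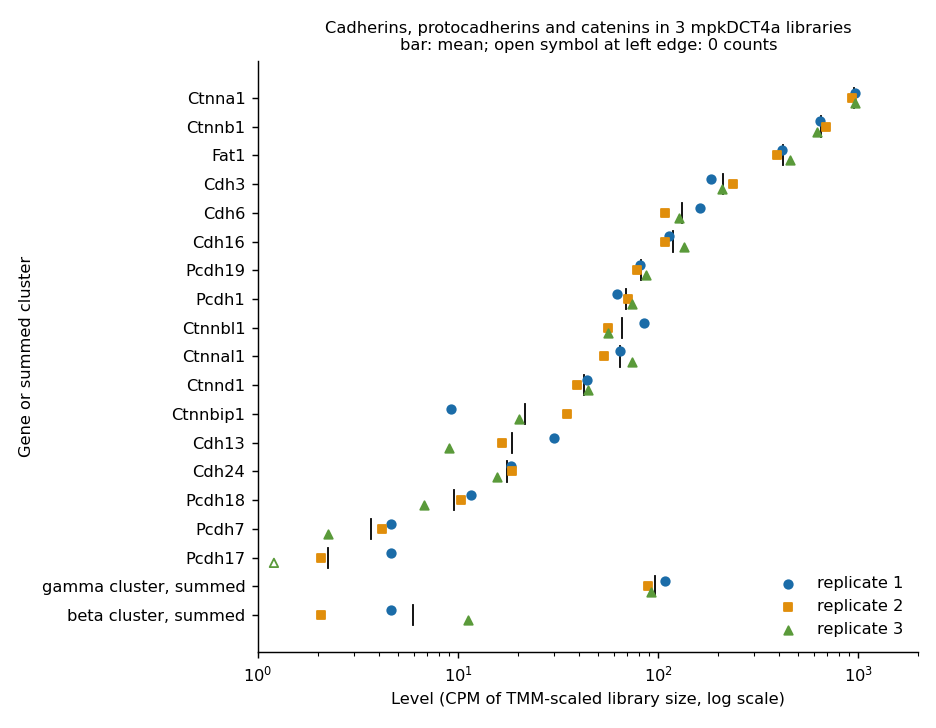
CPM (log axis) of the 17 detected members outside the clusters and of the summed beta and gamma protocadherin clusters, with a symbol for each of the 3 libraries and a black bar for the mean. Ctnna1 and Ctnnb1 lie highest with close symbols, whereas Ctnnbip1, Cdh13 and the beta cluster spread widely.

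The catenins of the cadherin complex held the largest part of the counts. Ctnna1, which encodes alpha-E-catenin (ENSMUSG00000037815, chromosome 18, 35118859 to 35254779, plus strand), had 417, 450 and 429 counts in replicates 1, 2 and 3 and a level of 952 ± 17.1 CPM (SD, n = 3). Ctnnb1, the gene of beta-catenin (ENSMUSG00000006932, chromosome 9, 120929216 to 120960507, plus strand), had 279, 333 and 278 counts and 652 ± 34.2 CPM. The libraries lay close together for both, and the spread of Ctnna1 (1.80% of the mean) was below the 4.81% that counting error gives. In transcripts-per-million (TPM), which divide counts by exon length, Ctnna1 was at 545 ± 9.08 and Ctnnb1 at 462 ± 26.1 TPM, ranks 186 and 237 among protein-coding genes. Per exon base, Ctnnb1 had 0.850 times the counts of Ctnna1 (95% exact binomial interval 0.779 to 0.926), and the direction was the same in 3 of 3 libraries.

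The other alpha-catenins had no count. These were Ctnna2, the neuronal form, and Ctnna3, the form of heart and testis. Per exon base, Ctnna1 was at least 467-fold higher than Ctnna2, taking 3 counts in place of 0. This and the later bounds of this kind leave out the counting error of the higher gene, so they are not 95% limits. Ctnnal1, which encodes the related alpha-catulin, had 28, 26 and 33 counts and was at 30.8 ± 4.89 TPM, so that Ctnna1 had 17.8 times its counts per exon base (14.3 to 22.3).

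Ctnnd1 had 19, 19 and 20 counts, or 42.7 ± 2.91 CPM, and the libraries did not differ beyond counting error (chi-square p = 0.911, adjusted p = 0.990). Over its full exon length Ctnnb1 had 21.6 times the counts of Ctnnd1 per base (16.6 to 28.7). If all 58 counts lay on the 2837 exon bases that no other gene covers on the same strand, Ctnnd1 had 20.4 counts per kilobase. The ratio was then 8.42 (6.45 to 11.2). That length was chosen after the data were seen. Ctnnd2, the neural delta-catenin, had 0 counts, and Ctnnd1 was at least 27.3-fold higher per exon base.

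All 6 listed relatives of the armadillo-repeat catenins were detected, against 50.6% of all protein-coding genes. Pkp1 rested on 1, 3 and 2 counts and Pkp3 on 2, 2 and 4. Jup, which encodes plakoglobin, had 103, 102 and 94 counts and 126 ± 7.09 TPM, and Ctnnb1 exceeded it 3.69-fold per exon base (3.23 to 4.22). Pkp4, a p120 relative found at adherens junctions, was at 86.3 ± 2.49 TPM, the desmosomal plakophilin gene Pkp2 at 44.3 ± 4.58 TPM and the p120 relative Arvcf at 29.3 ± 13.0 TPM. The order of Ctnnd1 and Arvcf depended on the length used. Their ratio was 0.739 (0.514 to 1.06) per exon base and 1.91 (1.33 to 2.73) per unshared base.

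Of the members that share only the catenin name, both were detected. Ctnnbl1, a nuclear protein of the spliceosome, had 37, 27 and 25 counts (89.3 ± 21.7 TPM). Ctnnbip1, which encodes an inhibitor that keeps beta-catenin from T cell factors, had 4, 17 and 9 counts and 28.5 ± 17.4 TPM. Its replicate 1 was low and replicate 2 high.

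**Figure D2:**
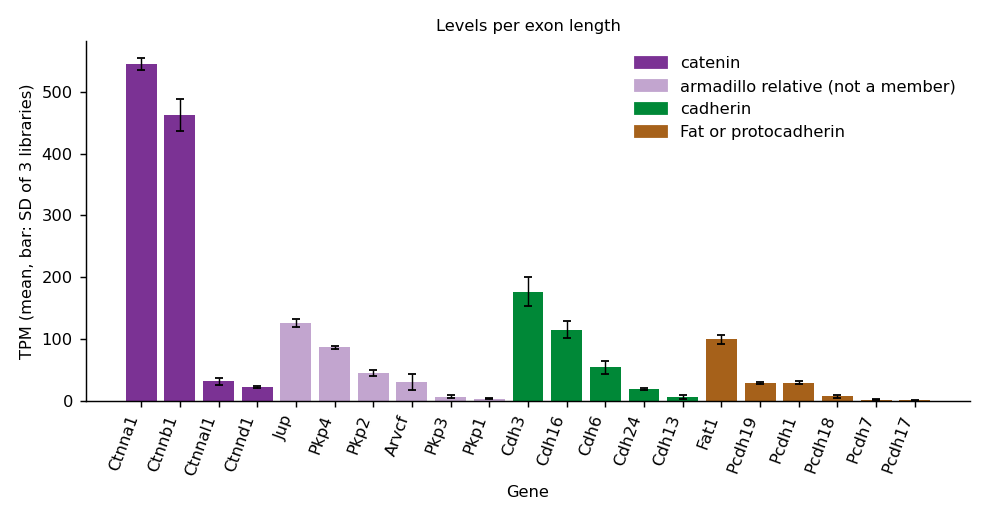
TPM (mean and SD of 3 libraries, from 0) of detected catenins, cadherins, Fat1 and protocadherins outside the clusters, with 6 armadillo relatives for comparison. Ctnna1 and Ctnnb1 stand at 545 and 462 TPM and Cdh3 at 176 TPM, and the bar of Ctnnd1 is divided by its full exon length.

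5 of the 21 Cdh genes were detected, and the other 16 had no count. Cdh3, which encodes P-cadherin, a classical cadherin known from placenta and basal epidermis (ENSMUSG00000061048, chromosome 8, 106510891 to 106557297, plus strand), had 80, 114 and 93 counts. It was at 210 ± 25.8 CPM and 176 ± 23.5 TPM, rank 906 among protein-coding genes. Cdh16, the kidney-specific Ksp-cadherin of tubule basolateral membranes (ENSMUSG00000031881, chromosome 8, 104601911 to 104624396, minus strand), had 49, 52 and 60 counts and 115 ± 14.5 TPM. Cdh6, a type II cadherin of the developing nephron (ENSMUSG00000039385, chromosome 15, 13028701 to 13173675, minus strand), had 70, 52 and 57 counts and 53.9 ± 10.4 TPM. For each of these genes the highest library stayed below 1.5 times the lowest in counts.

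By mean TPM the order was Cdh3, Cdh16, Cdh6. Per exon base, Cdh3 had 3.30 times the counts of Cdh6 (2.73 to 4.00), in the same direction in 3 of 3 libraries. Without division by length the ratio was 1.60. Cdh6 had 0.467 times the counts of Cdh16 per exon base (0.375 to 0.582), but without division by length it had 1.11 times its counts. Per exon base, Cdh16 was at least 63.3-fold higher than its intestinal relative Cdh17, and Cdh6 at least 58.9-fold higher than Cdh11, which marks mesenchyme and bone.

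The remaining detected cadherins were low. Cdh13, the T-cadherin that is held by a lipid anchor and lacks a catenin-binding tail, had 13, 8 and 4 counts (6.04 ± 3.40 TPM), with replicate 1 highest. Cdh24, a type II cadherin, had 8, 9 and 7 counts (18.6 ± 1.65 TPM), and its libraries lay close together.

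The classical cadherin genes without a count were Cdh4 and the muscle gene Cdh15. The type II genes without a count were Cdh5, Cdh7, Cdh8, Cdh9, Cdh10, Cdh11, Cdh12, Cdh18, Cdh19, Cdh20 and Cdh22, many of which are known from neurons. Cdh17, Cdh23, which acts in hair cells of the inner ear, and Cdh26 had none either. Cdh5 encodes the endothelial VE-cadherin, and of 6 other endothelial markers 1 was detected, Flt1 at 10.3 ± 0.989 CPM, with Pecam1, Kdr, Tek, Emcn and Plvap at 0 counts and a summed level of 9.23 to 11.2 CPM. Beside the mesenchymal Cdh11, 2 of 6 fibroblast markers were detected, Col1a1 at 7.25 ± 2.95 CPM and Pdgfrb at 2.15 ± 2.08 CPM. Col1a2 and Dcn had 1 count each, Col3a1 and Pdgfra had 0, and the list summed to 6.72 to 16.6 CPM. The part of such cells in the levels of the members was not tested.

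Of the giant cadherins, counts lay almost wholly on Fat1. Fat1, which acts in actin organisation and is known from the podocyte slit diaphragm and renal tubule cells (ENSMUSG00000070047, chromosome 8, 44935447 to 45052257, plus strand), had 181, 190 and 203 counts. Its level was 422 ± 30.9 CPM, but its exons span 15655 bases and its level per length was 99.3 ± 7.66 TPM. That lay below Cdh3, and within the summed SDs of Cdh16. Fat2, Fat4 and Dchs2 had 1 count each, and Fat3 and Dchs1 had 0. Per exon base Fat1 had 533 times the counts of Fat2 (95.2 to 21076) and 629 times those of Fat4 (113 to 24901), intervals that are wide because they rest on 1 count. It was at least 263-fold higher than Fat3. Fat4 and Dchs1, a ligand and receptor in kidney development, could not be compared, nor could Dchs1 with Dchs2. For long genes 0 counts set a tight limit per length, and 3 counts correspond to 0.378 TPM for Fat3 and 0.734 TPM for Dchs1, against 2.49 TPM for the short Cdh15.

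Among 12 protocadherins outside the clusters, 5 were detected. Pcdh19, a delta protocadherin known for its X-linked role in epilepsy (ENSMUSG00000051323, chromosome X, 133582860 to 133688987, minus strand), had 35, 38 and 39 counts, 82.3 ± 4.53 CPM and 29.0 ± 1.77 TPM. Pcdh1, known from epithelia such as that of the airway (ENSMUSG00000051375, chromosome 18, 38185914 to 38212053, minus strand), had 27, 34 and 33 counts, 68.9 ± 5.96 CPM and 28.9 ± 2.86 TPM. Both were even across the libraries, with SDs below counting error. Pcdh18 had 5, 5 and 3 counts, Pcdh7 had 2, 2 and 1, and Pcdh17 had 2, 1 and 0. Pcdh1 had 22.7 times the counts of Pcdh7 per exon base (9.37 to 71.4). With 3 counts in place of 0 for Pcdh9, Pcdh7 had 1.07 times its counts per exon base. That value leaves out the counting error of the 5 counts of Pcdh7, so the genes could not be ordered. Pcdh8, Pcdh9, Pcdh10, Pcdh11x, Pcdh12, Pcdh15 and Pcdh20 had no count.

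The clustered protocadherins, all on chromosome 18 on the plus strand, were treated as 1 group because their alpha and gamma genes share constant exons. Together they had 49, 44 and 46 counts, or 102 ± 11.0 CPM (exact Poisson interval of the summed counts 85.8 to 120 CPM). The 14 alpha genes (36930184 to 37187661) had 0 counts in all libraries. The 22 beta genes (37264938 to 37524479) had 2, 1 and 5 counts. The 21 gamma genes (37661793 to 37841873) had 47, 43 and 41 counts, or 96.4 ± 10.5 CPM. The gamma sum was thus even across the libraries, while the beta sum rested on 8 counts.

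Within the gamma cluster the counts lay on Pcdhgc3, a C-type isoform near its end. Pcdhgc3 (ENSMUSG00000102918) had 38, 32 and 31 counts and took 77.1% of the gamma counts (101 of 131, exact binomial interval 68.9% to 84.0%). The share was 80.9%, 74.4% and 75.6% in replicates 1, 2 and 3. Pcdhga11 followed with 4, 4 and 5 counts, then Pcdhga4 with 1, 2 and 1, and the highest beta gene was Pcdhb22 with 0, 1 and 3. The other C-type genes of this cluster, Pcdhgc4 and Pcdhgc5, had 2 counts each.

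Exon bases shared on the same strand made up 38.9% to 91.4% of the length of alpha genes, 31.5% to 66.8% of gamma genes and 0% to 9.67% of beta genes. Most alpha and gamma genes have shared bases in similar number, but Pcdha4 keeps 494 and Pcdhga4 keeps 1570 unshared bases, fewer than the other genes of their clusters. If shared bases were not counted, the values of these genes cover their unshared exon bases only. Over its 3380 unshared bases Pcdhgc3 had 29.9 counts per kilobase, against 18.4 over its full length. Beside these genes, which are best known from neurons, 2 of 6 neuronal markers were detected, Tubb3 at 14.1 ± 5.94 CPM and Map2 at 5.96 ± 4.71 CPM. Snap25, Rbfox3 and Stmn2 were at 0 counts, and the list summed to 10.4 to 31.4 CPM. The part of these markers' source in the protocadherin counts was not tested.

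**Figure D3:**
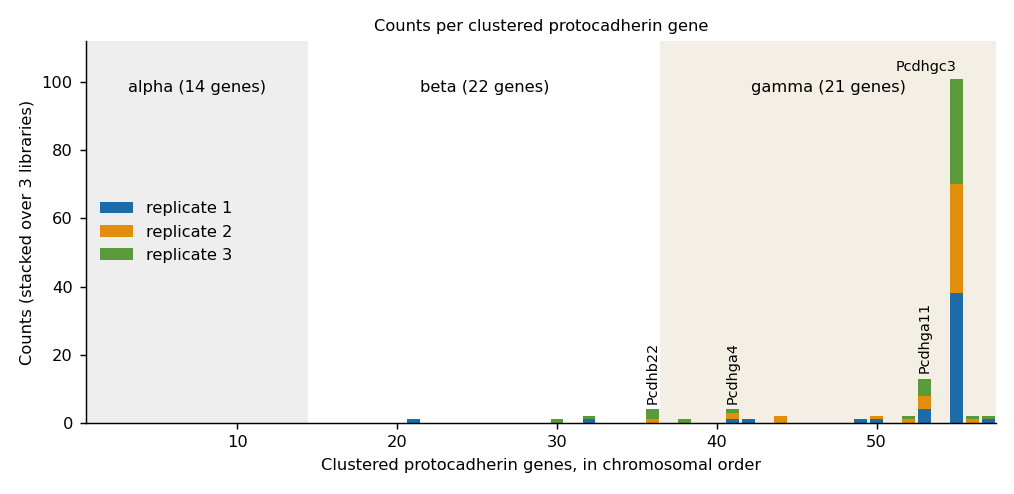
Counts of each clustered protocadherin gene in chromosomal order, stacked over the 3 libraries. The 14 alpha genes are empty, the 22 beta genes hold 8 counts and Pcdhgc3 holds 101 of the 131 counts of the gamma cluster.

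All 7 listed regulators of these clusters were detected, against 50.6% of all protein-coding genes. Dnmt3b among them rested on 2, 1 and 5 counts (5.96 ± 4.71 CPM). The cohesin genes and the insulator gene Ctcf, whose products fold protocadherin promoters onto their enhancers, included Rad21 at 625 ± 55.7 CPM, the cohesin release factor Wapl at 332 ± 21.7 CPM and the loader Nipbl at 259 ± 27.0 CPM. These values in CPM are not divided by length and do not rank the genes. Smchd1, a silencer that acts on these clusters, was at 439 ± 40.5 CPM.

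The 27 detected members were tested for differences between the replicates, and the members below 1 CPM were not tested. 0 of the 27 passed a chi-square test of their 3 counts against library size with Benjamini-Hochberg adjustment over 12473 genes, of which 0.0401% passed, so that a count of 0 is near the background and says little about the members. The smallest adjusted p among members was 0.902. At an unadjusted p under 0.05 there was 1 member, against 4.89% of all genes tested. It was Ctnnbip1 (chi-square p = 0.0287), whose spread of 60.6% of the mean compares with 31.6% from counting error. An exact multinomial test gave the same counts of 0 and 1. At 25 counts Cdh13 spread by 57.5% against 34.6% (chi-square p = 0.0661).

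Ratios could be formed for 16 of 18 pairs of related genes, and in 15 of them every library pointed the same way. Where the second gene had 0 counts (Ctnna2, Ctnnd2, Fat3, Cdh17, Cdh11 and Pcdh9), those 0s set the direction in advance. For these pairs it does not show agreement between replicates, and Fat2 and Fat4 rested on 1 count each. An exact two-sided sign-flip permutation test over 3 libraries cannot give a p below 0.25, the value of all 15, or 0.267 after adjustment over the pairs. For Ctnnd1 and Arvcf the permutation p was 0.5.

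**Figure D4:**
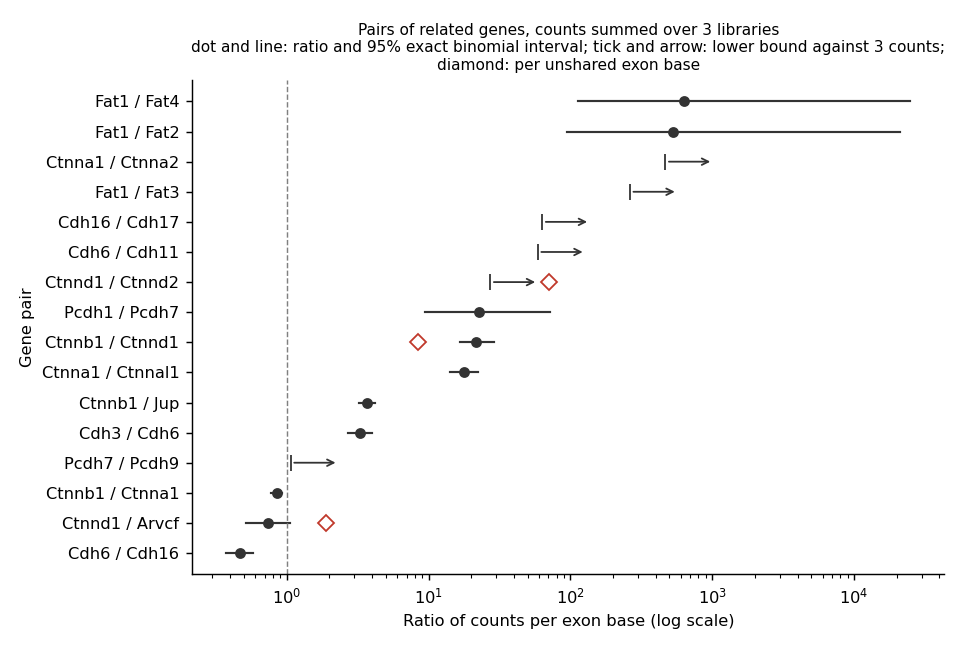
Ratios of counts per exon base (log axis) for 16 pairs of related genes, with 95% exact binomial intervals. A tick and arrow mark pairs whose second gene had 0 counts, taken as 3, without the counting error of the first gene. Open diamonds give the ratio per unshared exon base where it differs, as for Ctnnb1 over Ctnnd1 (8.42 in place of 21.6).

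Genes that work with these members were detected in 62 of 73 cases over 8 lists, against 50.6% of all protein-coding genes. With adjustment 0 of the 62 passed the chi-square test, against 0.0401% of all genes tested. At an unadjusted p under 0.05 there were 2, Arvcf and Vangl2, against 4.89% of all genes tested, which says little about these genes. Vangl2 was named after its values were seen. Linkers of adherens junctions to actin had 11 of 12 detected. They included Vcl, the vinculin that alpha-catenin recruits under tension, at 748 ± 14.9 CPM, the actin crosslinker Actn4 at 547 ± 21.9 CPM, the nectin-binding Afdn at 461 ± 26.6 CPM and Lima1 at 206 ± 11.6 CPM. Nectin4 had no count.

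All 9 genes of cadherin shedding were detected, although Aph1c rested on 0, 1 and 1 counts (1.44 ± 1.25 CPM). Adam10, the protease that cuts cadherins and protocadherins outside the cell, was at 181 ± 15.3 CPM and Adam17 at 97.1 ± 22.7 CPM. Ncstn, which encodes nicastrin, was at 75.8 ± 14.5 CPM.

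The machinery that degrades beta-catenin had 9 of 10 genes detected, with Gsk3b at 417 ± 29.5 CPM, Csnk1a1 at 382 ± 28.6 CPM, the scaffold Apc at 260.2 ± 28.2 CPM and the ubiquitin ligase adaptor Fbxw11 at 180 ± 14.0 CPM. Axin2, a scaffold that is itself a WNT target, had 0, 1 and 0 counts. Of 8 nuclear partners of beta-catenin 7 were detected, among them Pygo2 (93.0 ± 7.27 CPM), Bcl9l (89.4 ± 19.8 CPM), Tcf7l2 (80.1 ± 4.76 CPM) and Bcl9 (78.3 ± 15.3 CPM), and Lef1 had 0 counts.

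Planar polarity genes, the setting in which Fat and Dachsous act, had 10 of 12 detected. Among the 10, Fjx1 rested on 0, 2 and 0 counts (1.38 ± 2.39 CPM). The seven-pass cadherin genes Celsr2 and Celsr1 were at 173 ± 12.0 and 80.2 ± 8.69 CPM, Vangl1 at 95.01 ± 11.1 CPM and Dvl3 at 91.8 ± 2.55 CPM. Celsr3 and Prickle2 had no count. Of 9 other cadherin superfamily genes 3 were detected, Clstn1 (89.2 ± 15.6 CPM), Cdhr1 (3.64 ± 1.17 CPM) and Clstn2 (2.18 ± 2.24 CPM). Cdhr5 had 1 count, and Cdhr2, Cdhr3, Cdhr4, Clstn3 and Ret had 0. Cdhr4 has 47.3% of its exon bases on same-strand exons of another gene, so its counts may cover only part of its transcript.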

How the data were processed

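RNA of 3 mpkDCT4a libraries was fragmented to about 300 bp, from 500 ng of total RNA, per the labels' protocols. The authors deposited raw counts, whole numbers for each Ensembl gene. Per the submitters' processing notes, the tools include STAR and HTSeq with mm10, without versions or settings. GENCODE M21 supplied symbols, coordinates and lengths and matched 55227 of 55487 identifiers. The other 260 held 313 counts. CPM used TMM-scaled totals (edgeR 4.0.16, R 4.3.3, factors 0.992 to 1.01), and TPM the union of exons. The chi-square test took genes of at least 1 CPM at a Benjamini-Hochberg adjusted 0.05. It was also run on simulated Poisson counts. These hold only the counting error that the test assumes, so they cannot show how it behaves under wider spread. Pair ratios used a pseudocount of 0.5 counts for the sign-flip test and summed counts for intervals.

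Members and lists were chosen with earlier results of these data known. Named were detected members, members without counts, paired genes, the 4 highest of each partner list and up to 4 below 1 CPM. Of clustered genes at most the 5 highest were to be named. Pcdhgc4, Pcdhgc5, Vangl2, Fjx1, Aph1c, Ret, Pcdha4, Dnmt3b, Pkp1, Pkp3, Tmx2 and Gm28635 fall outside the naming rule. All of them were picked with their values in view. Setdb1 and the other listed genes enter the counts of their lists. A gene of the shedding list that the rule would name is not reported here. Of the 6 leukocyte markers 2 were detected, Csf1r at 45.8 ± 11.6 CPM and Cd68 at 3.72 ± 1.43 CPM. Ptprc, Adgre1, Cd3e and Lyz2 had 0 counts, and the list summed to 37.3 to 62.7 CPM. Alternatives were DESeq2 1.42.0 size factors, library totals, other thresholds, lengths and pseudocounts, an exact test, and leaving out each replicate. Tests ran in scipy 1.17.1 with pandas 2.3.3, and plots in matplotlib 3.10.9.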

Additional observations from a re-analysis of the deposited data

How the results depend on the processing

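The count of 27 detected members was 17 at a threshold of 5 CPM. It was 35 at 0.5 CPM, 19 with at least 1 count asked of every library, 31 to 33 with a replicate left out and 27 with DESeq2 size factors or library totals. The summed level of all members lay between 2974 and 3008 CPM under every scaling and with each replicate left out, and that of the clustered protocadherins between 97.1 and 108 CPM. Over all genes, 5 passed the chi-square test, 1 without replicate 1 and 3 without replicate 2 or replicate 3, which also left fewer counts, and the member count was 0 under every alternative run. Pairs with the same direction in every library numbered 14 to 16, including those whose second gene had 0 counts. The log2 ratio of Cdh6 to Cdh16 was -1.11 per exon base and 0.15 when counts were not divided by length. That of Ctnnd1 to Arvcf was -0.35 per exon base and 1.01 per unshared base, an alternative added after seeing the data. No paired analysis was possible because the labels give 1 group. The depth limits the low members most, since 1 count decides whether a gene with 2 counts reaches 1 CPM.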

Other observations

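Exon overlap like that of Ctnnd1 is found for other genes of the table. Of 265 protein-coding genes with 50% to 99% of their exon bases on same-strand exons of another gene, 84 (31.7%) had a count, against 53.8% of the genes without shared bases. Tmx2, whose first exons enter the joint gene model with Ctnnd1, had 21, 34 and 29 counts, and 252 of its 2330 exon bases are shared.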
